A study of Homo sapiens with 6 samples.

Results

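HSPB1 and HSPB8 are 2 small heat shock proteins that were measured in Hs578T cells given a small interfering RNA against CSRP2 or a non-targeting one. The array rows whose gene symbol is HSPB1 or HSPB8 were taken, and each gene had 1 probe set, so no choice between probe sets arose. They are 2 of the 14884 genes measured. Both were selected on their measured siCSRP2 minus siControl difference, so that difference is described below and carries no test.

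Hs578T is an established line from a human breast tumour, spindle-shaped and without the oestrogen receptor. The cells were grown in DMEM with 10% serum and insulin and transfected with Lipofectamine 2000, for 3 samples with the non-targeting RNA (siControl) and for 3 with the RNA against CSRP2 (siCSRP2), so the controls carried the reagent and an siRNA as well. The cells were moved to smaller wells 24 h after transfection, and RNA was taken 48 h after that move. Knockdown was transient and in 1 cell line, and the labels give neither the siRNA sequence nor how many siRNAs were used. The labels do not say whether replicates were separate cultures, so the spread behind each p-value is that between arrays and could be technical.

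Small heat shock proteins are chaperones that work without ATP. They share a conserved alpha-crystallin domain, form oligomers, and hold unfolding proteins until the HSP70 system refolds them or hands them on for degradation. HSPB1, also called HSP27, is abundant in many tumours, binds actin and is phosphorylated by the kinases MAPKAPK2 and MAPKAPK3 downstream of p38. HSPB8, also called HSP22, works in a complex with the co-chaperone BAG3, which passes damaged filamin and other clients to autophagosomes. Both genes can be induced by the heat shock factor HSF1, which binds inverted repeats of the unit GAA, and by oestrogen in breast cells that have its receptor.

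The promoters of the 2 genes are shown because both are taken as targets of heat shock factor while their signals lay in opposite directions here. The 250 bases before each gene's annotated start were read 5′ to 3′ from RefSeq (GRCh38.p14, plus strand), and capitals mark a match to GAANNTTC, 2 GAA units facing each other, which reads the same on both strands. HSPB1 lies at chr7:76302423-76302672 and HSPB8 at chr12:119178681-119178930.
HSPB1: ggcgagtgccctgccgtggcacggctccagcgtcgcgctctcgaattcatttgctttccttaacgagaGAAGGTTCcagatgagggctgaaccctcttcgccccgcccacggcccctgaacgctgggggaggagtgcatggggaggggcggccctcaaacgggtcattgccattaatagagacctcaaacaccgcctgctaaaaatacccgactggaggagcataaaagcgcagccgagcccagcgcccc
HSPB8: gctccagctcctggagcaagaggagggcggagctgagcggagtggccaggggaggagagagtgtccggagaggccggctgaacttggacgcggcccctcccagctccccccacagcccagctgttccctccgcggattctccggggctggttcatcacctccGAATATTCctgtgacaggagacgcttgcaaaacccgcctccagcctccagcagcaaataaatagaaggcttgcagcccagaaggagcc
HSPB8 held a second match just past its annotated start, at bases 5 to 12, shown here with its flanks (chr12:119178929-119178948).
HSPB8 second match: ccagaaGAAGTTTCtaggcg

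The HSPB1 match lay at bases -182 to -175 from the start and the first HSPB8 match at bases -88 to -81. GAANNTTC occurred in 6.77% of 35116 RefSeq windows of 300 bases (250 before the start and 50 from it on). The reverse arrangement, TTCNNGAA, occurred in 7.74% of the windows and in neither HSPB1 nor HSPB8. The full oestrogen response element GGTCANNNTGACC was found in 0.057% of windows and in neither gene. GGTCA, which is contained in the full element, stood at 2 places in the HSPB1 window, at base -89 on the plus strand and at base 42 on the minus strand, and not in the HSPB8 window, against 37.4% of all windows on either strand. These are matches of letters and not measured binding.

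The 6 arrays gave 1 log2 value per probe set. The median over all probe sets ran from 2.70 to 2.76 on siControl and from 2.80 to 2.82 on siCSRP2 arrays. The SD over probe sets ran from 1.35 to 1.38 and from 1.29 to 1.32, so values were less spread on each siCSRP2 array. Its part in the differences of bright or dim genes was not tested. In a principal component analysis over the genes, siControl 3 lay at -2.05 on the first component, between the other controls (-31.5 and -31.2) and the siCSRP2 arrays (14.01 to 30.7), and its mean correlation was 0.966 with the siCSRP2 arrays and 0.967 with the controls. Differences without siControl 3 are therefore given beside the results. CSRP2 itself measured 3.69, 4.01 and 4.35 on siControl and 3.25, 3.76 and 4.26 on siCSRP2 arrays, and the groups overlapped (log2 difference -0.26, SE 0.26, limma adjusted p = 0.583). The labels are thus not checked by the targeted gene, and siCSRP2 means the arrays labelled so. The 4 measured mesenchymal markers, VIM, FN1, CD44 and AXL, had means of 7.46 to 10.8, against a median of 2.99 over all gene means. All 4 were lower on each siCSRP2 array than on any control, as was HSPB1, and 3 fell: AXL (log2 difference -1.73, limma adjusted p = 0.00833), VIM (-0.82, 0.0149) and FN1 (-0.59, 0.0299); CD44 did not pass (-0.32, 0.137). Of all genes, 16.2% had groups that do not overlap, lower in siCSRP2, and 6.54% fell. With the dimmest 50% of genes left out, 1141 of 7442 fell, and these markers are bright. The part of these markers in the HSPB1 difference was not tested. The 6 measured epithelial and luminal markers had means of 2.50 to 3.74, with the oestrogen receptor ESR1 at 2.67. The endothelial markers PECAM1 and VWF were at 2.53 and 2.57, and the one immune marker measured, the lysosomal protein CD68, was at 7.92, with a difference of 0.64 that did not pass (limma adjusted p = 0.0778).

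HSPB1 (probe set 17047504) was lower on all siCSRP2 arrays. It measured 8.49, 8.60 and 7.78 on siControl 1, 2 and 3, and 6.89, 6.94 and 6.47 on siCSRP2 1, 2 and 3, in log2 units. The lowest control lay 0.84 above the highest siCSRP2 array, so the groups did not overlap, and within each group the array numbered 3 was the lowest. Group means were 8.29 ± 0.45 and 6.77 ± 0.26 (SD, n = 3), a log2 difference of -1.52 (SE 0.22), or 2.88-fold. Between arrays of equal number the difference was -1.61, -1.65 and -1.31. Without siControl 3 the difference was -1.78, or 3.43-fold. HSPB1 was a bright gene, with a mean of 7.53 over the 6 arrays, and 47 of 14884 genes had a lower difference. Groups that do not overlap, lower in siCSRP2, were seen for 16.2% of all genes. In bulk RNA, fewer cells expressing a gene and less RNA per cell cannot be told apart. HSPB1 also has processed pseudogenes of similar sequence, and the probe sequences were not used here, so a share of signal from those copies was not tested.

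HSPB8 (probe set 16757766) was higher on all siCSRP2 arrays. It measured 3.83, 4.14 and 4.12 on siControl 1, 2 and 3, and 4.33, 4.61 and 4.93 on siCSRP2 1, 2 and 3, in log2 units. The gap between the groups was narrow: the lowest siCSRP2 array lay 0.19 above the highest control, less than the spread of either group (0.31 in siControl and 0.60 in siCSRP2, highest minus lowest). Group means were 4.03 ± 0.17 and 4.62 ± 0.30 (SD, n = 3), a log2 difference of 0.59 (SE 0.17), or 1.51-fold. Between arrays of equal number the difference was 0.50, 0.46 and 0.81. The difference was 0.64 without siControl 3, 0.44 without siCSRP2 3 and 0.74 without siCSRP2 1. A higher difference than that of HSPB8 was found for 209 of 14884 genes, and groups that do not overlap, higher in siCSRP2, for 11.5% of all genes. On siControl 3, which stood apart on the whole array, HSPB8 lay within the range of the other controls, while HSPB1 there differed by -0.71 from the lower of them.

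**Figure D1:**
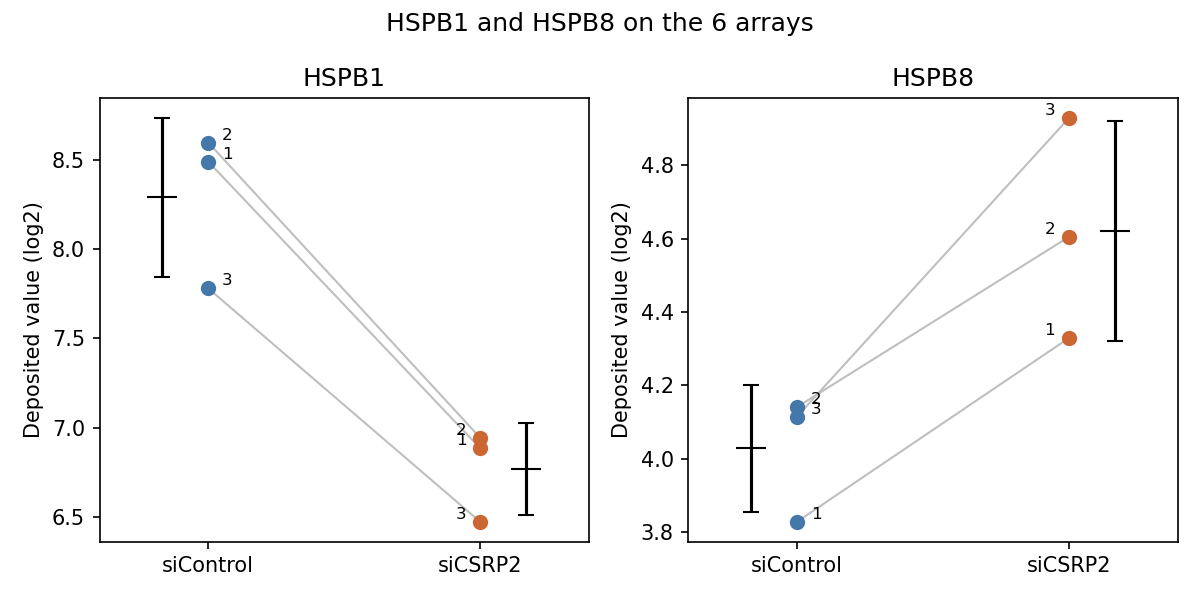
Deposited log2 values (vertical axis) of HSPB1 (left) and HSPB8 (right) on the 3 siControl and 3 siCSRP2 arrays, with replicate numbers beside the points, grey lines joining arrays of equal number, and black bars for the group mean ± SD. HSPB1 was lower on each siCSRP2 array than on any control, and HSPB8 higher.

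The direction of each gene was the same under every scaling and with any single array left out. HSPB1 ranged from -1.78 (without siControl 3) to -1.37 (without siControl 2). HSPB8 ranged from 0.44 (without siCSRP2 3) to 0.75 (cyclic loess), and rescaling moved it more, relative to its size, than HSPB1: quantile normalization gave 0.74 and centring on the array median gave 0.51, beside -1.43 and -1.61 for HSPB1.

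**Figure D2:**
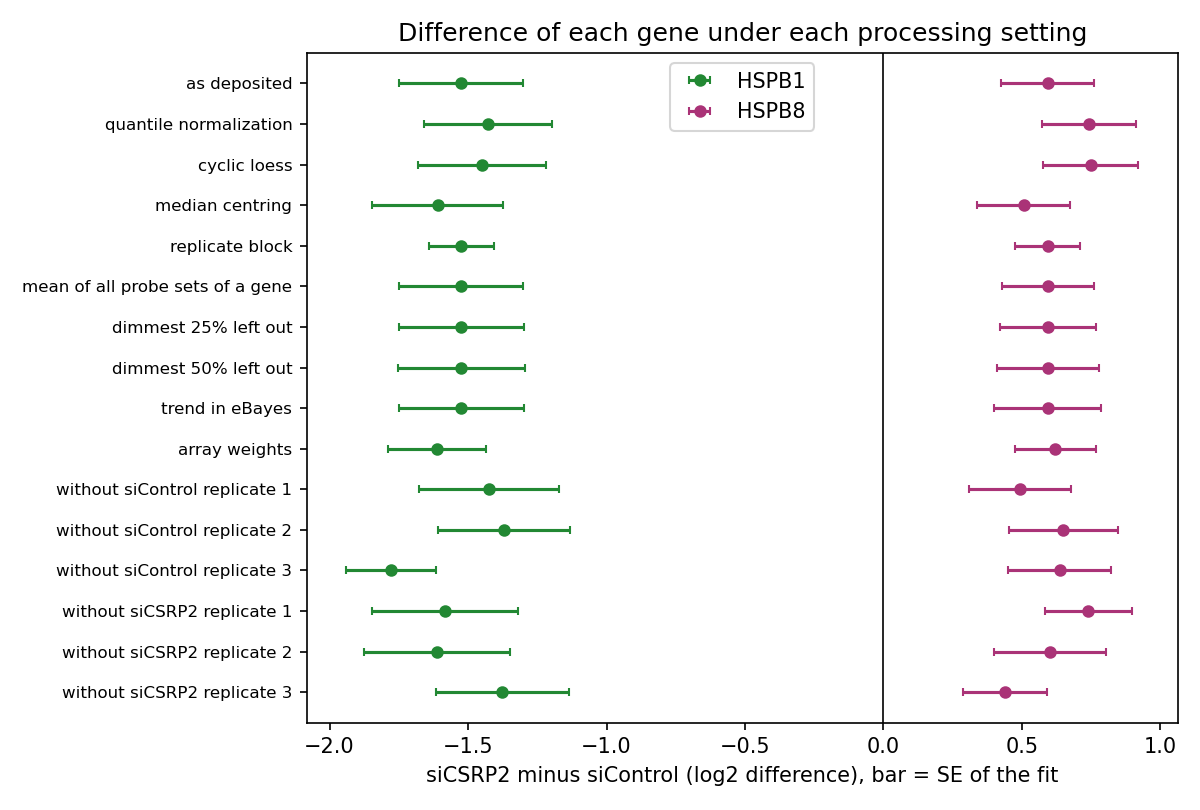
Log2 difference, siCSRP2 minus siControl (horizontal axis), of HSPB1 (green) and HSPB8 (purple) under each processing setting (vertical axis), with the SE of the fit as bars. HSPB1 stays between -1.78 and -1.37, and HSPB8 between 0.44 and 0.75.

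Of the other 8 genes of the small heat shock family, 2 had a named probe set, and the other 6 were not analysed here. HSPB3, a muscle member, measured 2.41, 2.09 and 2.40 on siControl and 2.52, 2.48 and 2.51 on siCSRP2 arrays. ODF1, a sperm tail protein of the family, measured 2.62, 2.62 and 2.53 on siControl and 2.83, 3.16 and 2.54 on siCSRP2 arrays. Both lay below the median of gene means, and neither passed the test (limma over all genes, Benjamini-Hochberg, adjusted p = 0.352 for HSPB3 and 0.372 for ODF1). The log2 differences were 0.20 (SE 0.12) and 0.25 (SE 0.16), and 0.25 and 0.22 without siControl 3. Other arrays moved them more: HSPB3 was at 0.10 without siControl 2, and ODF1 at 0.10 without siCSRP2 2 and 0.41 without siCSRP2 3. Quantile normalization gave 0.13 and 0.17. At an unadjusted p under 0.05, the count was 0 as well, beside 3523 of 14884 genes.

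In the pathway of HSPB8, the autophagy of chaperone clients, 6 of 13 listed genes were measured; 1 fell, none rose and 5 did not pass. That is 16.7% of 6 genes, where 7.34% of all genes passed in either direction and 6.54% fell. With the dimmest 50% of genes left out it was 1 of 5, or 20%, where 17.3% of the genes left passed. The gene that fell was STX7, a syntaxin of late endosomes, from 4.57 ± 0.39 to 3.72 ± 0.25 (SD, n = 3; log2 difference -0.85, SE 0.21, limma adjusted p = 0.0449). Its values were 4.90, 4.67 and 4.14 on siControl and 3.79, 3.93 and 3.44 on siCSRP2 arrays, and the groups did not overlap. STX7 passed without siControl 3 (-1.07) and in the fit with replicate number as a block (the replicate block below). The call was lost after quantile normalization (adjusted p = 0.0663) or cyclic loess (0.0683) and without any one of the other 5 arrays (0.0790 to 0.177).

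BAG3, the direct partner of HSPB8, was not among the genes that passed. It measured 5.14, 5.04 and 4.84 on siControl and 4.44, 4.79 and 4.79 on siCSRP2 arrays, a log2 difference of -0.33 (SE 0.14, limma adjusted p = 0.195, and 0.0892 without siControl 3). The groups did not overlap, and the gap between siControl 3 and the nearest siCSRP2 array was 0.04. The difference shrank to -0.16 after quantile normalization, -0.17 after cyclic loess and -0.21 without siCSRP2 1, and was -0.41 without siControl 3. The autophagy receptor SQSTM1 (-0.05) and MAP1LC3B (0.07), which marks autophagosomes, had differences near 0 with overlapping groups. SYNPO2, an adaptor of the complex, had a difference of 0.02. Its mean was 2.34, below the median of 2.99 over all gene means, so a change in it could hardly be seen. The median over the 6 genes was -0.13, where all genes, many of them dim, had a median of 0.02. With the dimmest 50% of genes left out, the median was -0.21 over the 5 listed genes that remained. It was -0.15 over all genes left in that fit, which were not matched to the list by brightness.

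Of 25 chaperones and co-chaperones listed as HSF1 targets, 13 were measured. Of these, 1 fell, none rose and 12 did not pass, a share of 7.69%, beside 7.34% of all genes. All 13 were among the brighter 50% of genes. In the fit with the dimmest 50% left out the list share was again 7.69%, beside 17.3% of the genes left. HSPA4L, a nucleotide exchange factor of the HSP110 family, fell 1.96-fold. It measured 4.87, 4.69 and 4.80 on siControl and 3.95, 3.80 and 3.70 on siCSRP2 arrays (log2 difference -0.97, SE 0.11, limma adjusted p = 0.00535), with a gap between the groups that is wider than either group's spread. HSPA4L passed under every alternative, including each fit with 1 array left out (-1.04 to -0.92).

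The stress-inducible HSP70 gene HSPA1A measured 8.54, 8.46 and 8.88 on siControl and 8.63, 8.24 and 8.59 on siCSRP2 arrays, a log2 difference of -0.14 (SE 0.16, limma adjusted p = 0.624, and -0.02 without siControl 3). Its near-identical neighbour HSPA1B had a difference of -0.19, and signal of the pair cannot be split between them. HSPH1, another HSP110 protein, had a difference of 0.21 (SE 0.21, limma adjusted p = 0.574, and 0.39 without siControl 3). The list median was -0.16, beside -0.15 over all genes left when the dimmest 50% were taken out. CACYBP, a ubiquitin ligase adaptor, did not pass (-0.63, limma adjusted p = 0.0786). With the replicate block, CACYBP fell too (adjusted p = 0.0110), which makes 2 of 13, or 15.4%, beside 15.8% of all genes in that fit; CACYBP also fell without siControl 3 (-0.77, adjusted p = 0.0164).

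None of the 7 measured heat shock factors and regulators passed the test by limma, beside 7.34% of all genes. An unadjusted p under 0.05 was found for 3 of the 7, beside 3523 of 14884 genes in the same fit. With the dimmest 50% of genes left out, 6 of the 7 remained and none passed, beside 17.3% of the genes left. HSF1, the master factor of the heat shock response, measured 5.20, 5.78 and 5.32 on siControl and 5.21, 5.84 and 5.33 on siCSRP2 arrays. Its log2 difference was 0.03 (SE 0.20, 95% interval -0.43 to 0.48) and -0.03 without siControl 3, and in both groups the array numbered 2 was the highest. The brightest members were EP300, an acetyltransferase that acts on HSF1, with a difference of 0.60 (SE 0.25, adjusted p = 0.181), and HSBP1, a small protein that binds the HSF1 trimer, with -0.55 (SE 0.15, adjusted p = 0.0646). Both passed with the replicate block, EP300 as a rise (adjusted p = 0.0105) and HSBP1 as a fall (0.0168), which makes 2 of 7, or 28.6%, beside 15.8% of all genes in that fit. HSBP1 also fell without siControl 3 (-0.66, adjusted p = 0.0159).

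Of 12 listed kinases of the p38 branch that leads to HSPB1 phosphorylation, 11 were measured; 2 fell, none rose and 9 did not pass. That is 18.2%, beside 6.54% of all genes that fell. With the dimmest 50% of genes left out it was 2 of 7, or 28.6%, beside 17.3% of the genes left that passed in either direction. MAPKAPK3, which phosphorylates HSPB1 directly, measured 4.74, 4.76 and 4.55 on siControl and 4.21, 3.97 and 3.82 on siCSRP2 arrays (log2 difference -0.68, SE 0.13, limma adjusted p = 0.0219). MAP3K5, the stress kinase ASK1 at the top of the branch, measured 4.83, 4.93 and 4.37 on siControl and 4.19, 3.63 and 3.51 on siCSRP2 arrays (-0.93, SE 0.21, limma adjusted p = 0.0340). The groups did not overlap for either gene, and without siControl 3 the differences were -0.75 and -1.10. MAPKAPK2, the other direct HSPB1 kinase, had a difference of 0.04 (SE 0.18, 95% interval -0.36 to 0.44) and overlapping groups.

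The count of p38 branch genes that passed varied with the array left out, as did the share of all genes. It was 4 without siControl 3, where 17.6% of all genes passed, and 2 without siCSRP2 1, where 5.89% did. It was 0 without siControl 1, siControl 2, siCSRP2 2 or siCSRP2 3, where 1.05%, 0.611%, 1.30% and 1.91% of all genes passed. With the replicate block it was 4 of 11, or 36.4%, beside 15.8% of all genes. MAPK12, a p38 kinase, and MAP2K6, which activates p38, fell in addition in that fit (-0.49, adjusted p = 0.0323, and -0.82, 0.0217). Neither passed on the values as deposited without the block (0.104 and 0.0981), and both fell without siControl 3 (-0.60, adjusted p = 0.0334, and -1.17, 0.000945). MAP2K6 was dim, with a mean of 2.91. It measured 3.775, 3.555 and 2.623 on siControl and 2.626, 2.454 and 2.414 on siCSRP2 arrays, so its groups overlapped. The list median was -0.11. MAP3K5 did not pass after quantile normalization (adjusted p = 0.0542) or cyclic loess (0.0528), while MAPKAPK3 did.

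Among the 11 oestrogen receptor and response genes, all measured, none passed the test by limma, with or without the replicate block. Of all genes, 7.34% passed without the block and 15.8% with it. In either fit 4 of the 11 had an unadjusted p under 0.05, beside 3523 of 14884 genes without the block and 4216 with it. ESR1 measured 2.49, 2.58 and 2.64 on siControl and 2.55, 2.94 and 2.80 on siCSRP2 arrays, below the median of gene means on each array. The brightest members were the lysosomal protease CTSD (8.99 and 8.70, difference -0.29, limma adjusted p = 0.365) and XBP1, a transcription factor of the unfolded protein response (7.34 and 7.69, 0.35, 0.122). XBP1 passed without siControl 3 (0.44, adjusted p = 0.0458). The list median was 0.05. With the dimmest 50% of genes left out, 4 of the 11 remained and none passed, beside 17.3% of the genes left. The median over those 4 was -0.14, beside -0.15 over all genes left.

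**Figure D3:**
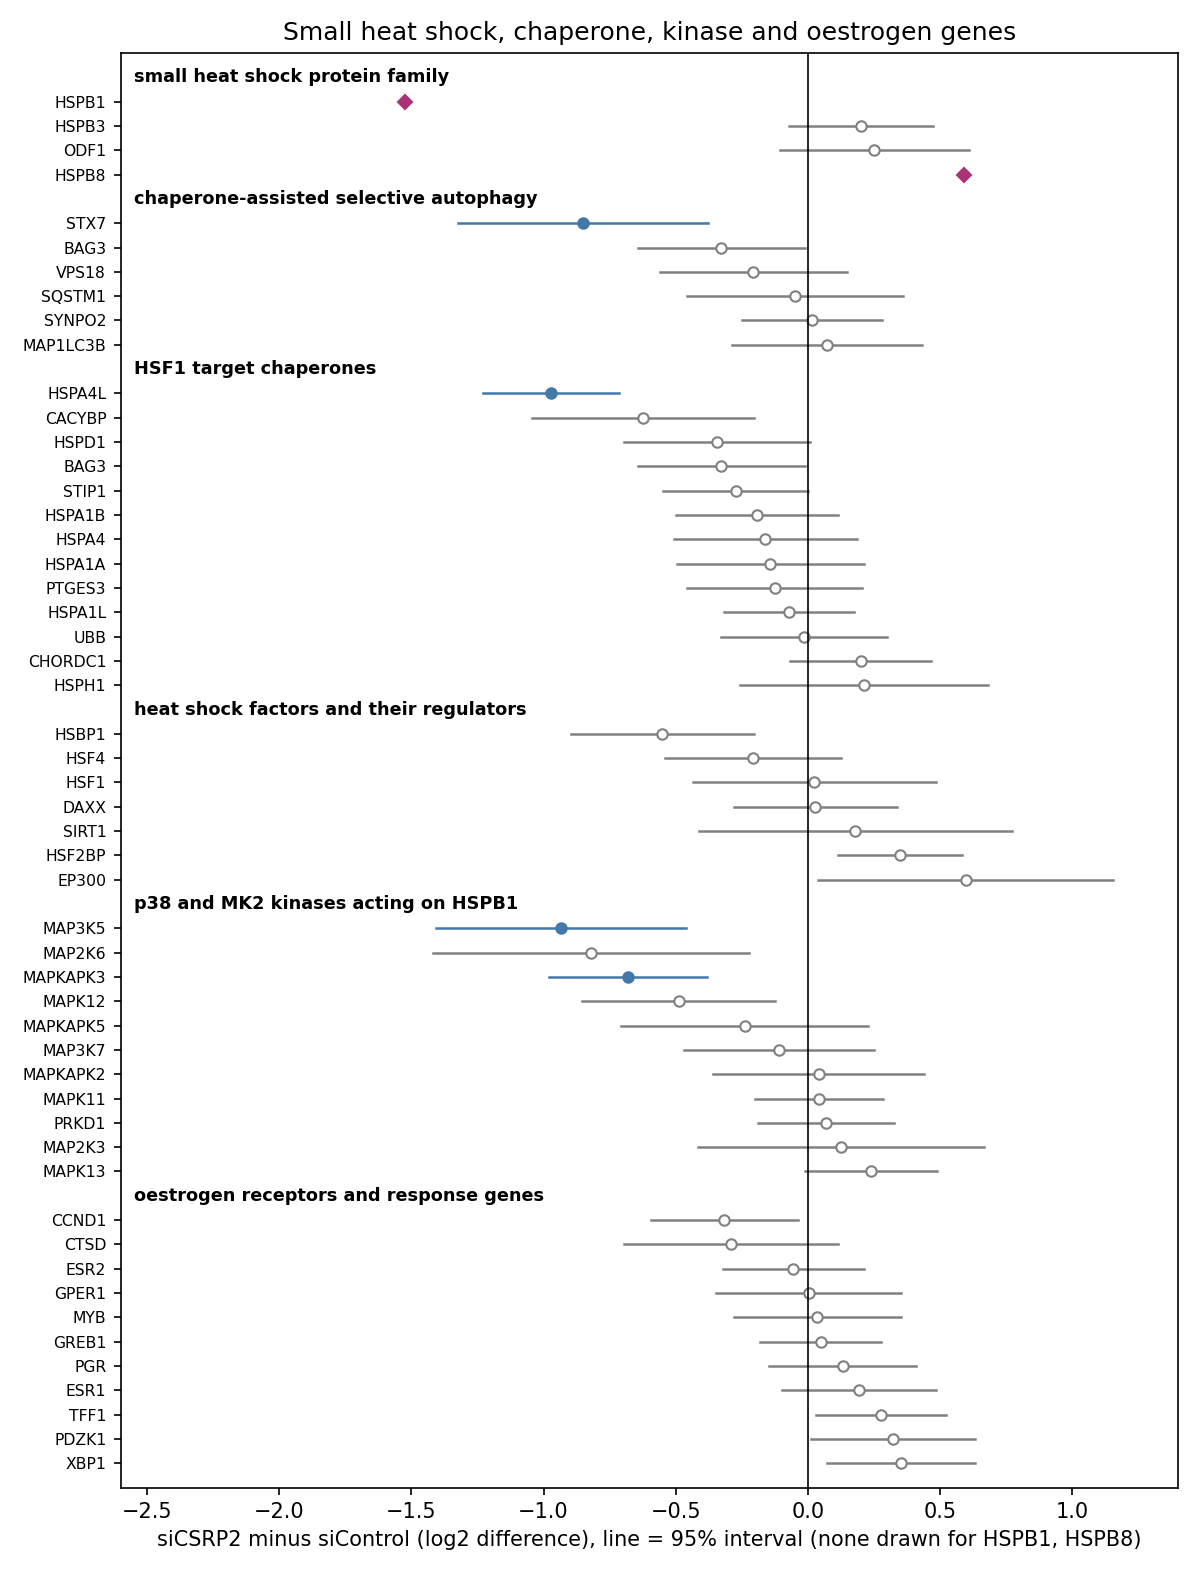
Log2 difference, siCSRP2 minus siControl (horizontal axis), of each measured gene of the 6 lists (vertical axis), with 95% intervals from limma, filled blue where adjusted p was under 0.05. HSPB1 (-1.52) and HSPB8 (0.59) are purple diamonds without an interval or test, and STX7, HSPA4L, MAP3K5 and MAPKAPK3 are the filled genes, all lower in siCSRP2.

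Over all genes, 119 rose (0.800%) and 974 fell, so falls made up 89.1% of the calls as deposited, 76.0% with quantile normalization, 77.7% with cyclic loess and 94.5% with arrays centred on their medians. With the replicate block 398 rose (2.67%) and 1950 fell (13.1%).

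The genes whose values followed each small heat shock gene most closely were sought among 7440 other genes with a mean above the median, by Pearson correlation over the 6 arrays. For HSPB1 they were ZC3H7B, a CCCH zinc finger RNA-binding protein (r = 0.999), NSMAF, an adaptor of the TNF receptor that activates neutral sphingomyelinase (r = 0.999), and EI24, a membrane protein of the endoplasmic reticulum (r = 0.998). ZC3H7B measured 5.14, 5.32 and 4.53 on siControl and 3.69, 3.80 and 3.39 on siCSRP2 arrays, with siControl 3 low among the controls and siCSRP2 3 low among its group, as for HSPB1. For HSPB8 they were MCOLN1, a calcium channel of lysosomes (r = 0.991), the zinc finger gene ZNF790 (r = 0.988) and C5orf15, a membrane protein (r = 0.988). MCOLN1 measured 4.46, 4.68 and 4.64 on siControl and 4.88, 5.03 and 5.42 on siCSRP2 arrays.

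A correlation above 0.95 was reached by 658 genes for HSPB1 and by 58 for HSPB8. The points are the same 6 arrays, split into 2 groups, so every gene that differs between the groups shares part of the pattern. The size of the difference varied among the most similar genes, from -1.37 for ZC3H7B to -1.02 for NSMAF beside -1.52 for HSPB1, and from 0.12 for ZNF790 to 0.72 for C5orf15 beside 0.59 for HSPB8.

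**Figure D4:**
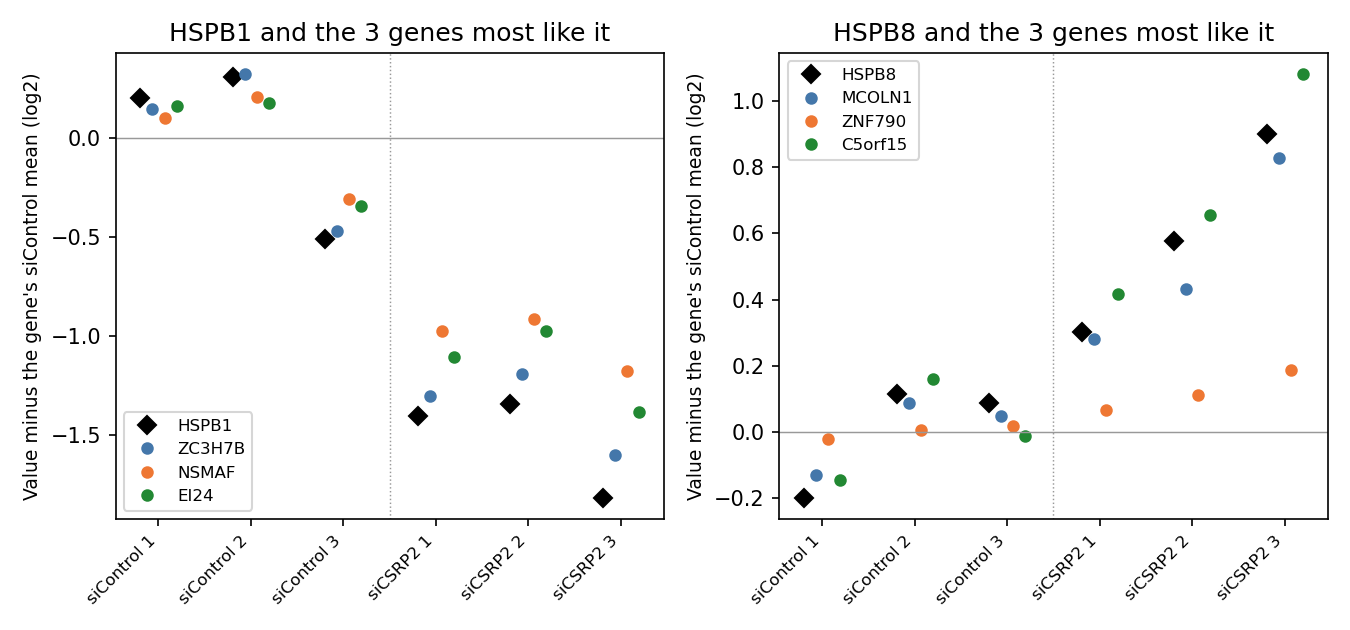
Values on each array minus the gene's own siControl mean (vertical axis, log2) for HSPB1 (left) and HSPB8 (right), drawn as black diamonds, and the 3 genes with the highest correlation to each (coloured circles); the dotted line separates siControl from siCSRP2. On siControl 3, HSPB1 and its 3 most similar genes lie below their control mean, while HSPB8 lies within the range of the other controls.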

How the data were processed

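Total RNA of 6 samples was hybridised to Affymetrix HuGene 2.0 arrays, per the labels. The values deposited by the authors, 1 for each probe set on each array, are taken to be log2 from their range. Per the submitters' processing notes Partek was used, with no step named; their normalization and genome build are not stated in these sources. The platform's annotation gave 16098 of 53617 probe sets 1 gene symbol, none several and 37519 no gene, and the brightest probe set stood for each of 14884 genes. All columns were mapped to samples. The 2 groups were tested in R 4.3.3 with limma 3.58.1 (lmFit, eBayes), two-sided, and Benjamini-Hochberg adjusted p-values over all genes were called under 0.05. The fit was also run on simulated data with noise independent between genes and arrays. That run does not cover an array that stands apart or an effect shared by replicate number. Alternatives were other scalings, filters, weights, probe set means, each array left out and the replicate number as a block. The number of arrays limits the precision.

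The genes and lists were chosen with earlier results of these data known. Named genes are both small heat shock genes, their measured family members, up to 4 members of each list that passed (otherwise the 2 brightest), and the 3 most similar genes. BAG3, SQSTM1, MAP1LC3B, SYNPO2, HSF1, MAPKAPK2, ESR1, HSPA1A, HSPA1B, HSPH1, CACYBP, MAP2K6 and MAPK12 lie outside that rule and were added with their values in view.

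Same-numbered arrays deviated from their group means together, with correlations over genes of 0.31, 0.19 and 0.32. Each exceeds 0.1, so pairs by number are possible, though the labels do not state a pairing. Between arrays of different number the correlations ran from -0.26 to 0.05. With 3 arrays per group such correlations cannot establish a pairing. The reported fit has no block, and the fit with the replicate block is given where it changes a call.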

Additional observations from a re-analysis of the deposited data

How the results depend on the processing

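HSPB1 and HSPB8 kept their direction, and moved by less than their spread between replicates, under every alternative run. With 1 array left out, HSPB1 ranged from -1.78 to -1.37 and HSPB8 from 0.44 to 0.74; with the replicate number as a block they stayed at -1.52 and 0.59. The count of all genes past the threshold was 1093 as reported, 2348 with the replicate block, 2924 with array weights and 91 to 2620 with 1 array left out (the extremes without siControl 2 and without siControl 3). The autophagy list had 1 gene past it, 0 after quantile normalization or cyclic loess, and 0 to 1 with 1 array left out. The HSF1 targets had 1, 2 with the replicate block, 2 with array weights, and 1 to 2 with 1 array left out. The heat shock factors had 0, 1 after median centring, 2 with the replicate block, 3 with array weights, and 0 to 1 with 1 array left out. The p38 branch had 2, 1 after quantile normalization or cyclic loess, 4 with the replicate block, 4 with array weights, and 0 to 4 with 1 array left out. The oestrogen list had 0, 2 with array weights, and 0 to 1 with 1 array left out. The small heat shock family had 0 throughout; with the dimmest 50% of genes left out it had no member to test. The replicate block changed no other list count. No background level was at hand, so folds of dim genes may be too small. The causes of these shifts were not tested.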
